A study of Mus musculus with 28 samples.

Results

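A set of 4 miRNAs of red blood cells was followed through small RNA libraries of mouse alveolar macrophages (AM): mmu-mir-486b-5p, mmu-mir-451a, mmu-mir-144-3p and mmu-mir-144-5p, written below as miR-486b-5p, miR-451a, miR-144-3p and miR-144-5p. They were chosen by name, among the 607 miRNAs listed in any of the 4 deposited tables. The tables for co-ex females, KO females and KO males list all 4, and the table for co-ex males lists 3, without miR-144-3p. The AM were washed from the lungs of mice aged 12 weeks, taken 4 h after 3 h in filtered air (FA) or ozone (O3). Co-ex mice carry the human surfactant protein genes SP-A1 and SP-A2 (variants 6A2/1A0) on a C57BL/6J background that lacks mouse SP-A, and KO mice lack SP-A altogether, so all groups share the loss of the mouse gene. Both sexes were studied, and the females were synchronized for the estrous cycle. What drives the human genes was not given in the sources used here, and SP-A is an mRNA that small RNA libraries do not measure, so the genotype labels could not be checked from them. Each sex and exposure has 4 co-ex or 3 KO libraries, 28 in 8 groups, although 4 animals per group were exposed.

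Red cells lose their nucleus as they mature but keep a small set of miRNAs at high level. Mir144 and Mir451a are transcribed together under erythroid factors such as GATA1. miR-451a is unusual in that its hairpin is too short for Dicer and is cut by Ago2 instead, while the 2 arms of the miR-144 hairpin are cut by Dicer in the usual way. miR-486 lies within Ank1, the gene of the erythrocyte form of ankyrin, and is also known from muscle. AM are the resident phagocytes of the air spaces and are not known for making these miRNAs.

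The sequences of 3 of the 4 miRNAs, from RefSeq on build GRCm38.p6, are shown to give what the libraries counted. The seeds, bases 2 to 8 and written in capitals, differ in all 3, so these miRNAs share a transcript but no seed.
mmu-miR-451a: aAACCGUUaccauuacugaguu
mmu-miR-144-3p: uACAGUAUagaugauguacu
mmu-miR-144-5p: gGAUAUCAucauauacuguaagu
Among the listed miRNAs with a sequence, 517 of 607, no other carries one of these seeds at bases 2 to 8. The nearest is miR-101a-3p, which has bases 2 to 7 of miR-144-3p, here in capitals.
mmu-miR-101a-3p: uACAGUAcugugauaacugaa
The hairpins are shown because the mature arms, in capitals, lie differently in them. In Mir144 (chromosome 11, 78073005 to 78073070, plus strand, 66 bases) both arms yield a listed miRNA, and in Mir451a (chromosome 11, 78073170 to 78073241, plus strand, 72 bases) a single mature form of 22 bases runs from position 17 to position 38, into the loop.
Mir144: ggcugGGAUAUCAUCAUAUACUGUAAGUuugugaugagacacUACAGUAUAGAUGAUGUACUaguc
Mir451a: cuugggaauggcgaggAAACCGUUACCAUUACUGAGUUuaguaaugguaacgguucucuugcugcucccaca
There are 99 bases between the hairpins, and neither lies within another annotated gene. Mir451b is annotated on the minus strand of the same bases as Mir451a, and its mature form, miR-451b, is listed for KO males alone. The gene that RefSeq names as the source of miR-486b, Mir3107, lies opposite Mir486 in an intron of Ank1. No table has a row for miR-486a, and whether the counting could tell both genes apart was not checked.

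The libraries held 41542 to 2082034 reads on miRNAs (median 490152), and each was expressed as normalized values, the reads divided by a size factor, which compare libraries within a table. Levels across tables are given here in rpm, the reads scaled to a total of 1000000 miRNA reads in each library. Where no read was found, up to 3 reads are allowed, which equal 1.44 to 72.2 rpm depending on the library, and this limit and the intervals below cover counting error only. All 6 macrophage and myeloid miRNAs that were checked (such as miR-223-3p and miR-146a-5p) are listed in every table and summed to between 42505 and 223060 rpm. The lowest of these sums, in KO males after FA replicate 3, came with 7177 rpm of endothelial miR-126a, 25437 rpm of mesenchymal miRNAs and 5752 rpm of lymphocyte miR-150-5p, where the other 2 libraries of the group held at most 11.2, 795 and 115 rpm. In KO females after O3 replicate 3, muscle miRNAs reached 85312 rpm, against 720 rpm or less in the other 2. The changes after O3 in KO mice are given with and without these libraries, and correlations are not.

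miR-486b-5p was by far the most abundant of the 4 and was found in all 28 libraries, with 127 to 125278 reads. Its share of the miRNA reads ran from 0.0987% (95% Wilson interval 0.0903 to 0.108%) in co-ex males after FA replicate 1 to 13.7% (13.4 to 13.9%) in co-ex females after FA replicate 3. It was the most abundant of all miRNAs in that library and in KO males after O3 replicate 3, where it took 11.1% of the reads (11.0 to 11.1%), and it stood among the 10 most abundant in 6 libraries. The counting intervals are narrow beside the differences between mice of one group.

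**Figure D1:**
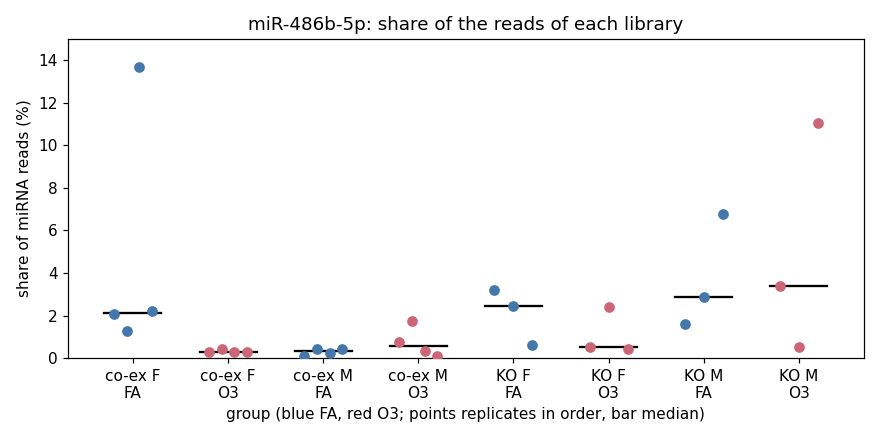
Share of the miRNA reads taken by miR-486b-5p (y axis, percent) in each of the 28 libraries (points), by group (x axis; blue FA, red O3; bar, median). Most libraries lie below 4%, and one library each in co-ex females after FA (13.7%) and KO males after O3 (11.1%) stand far above the others of their group.

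By median level, the groups ran from KO males after O3 (34064 rpm) through KO males after FA (28786), KO females after FA (24385) and co-ex females after FA (21212) to co-ex males after O3 (5515), KO females after O3 (5122), co-ex males after FA (3193) and co-ex females after O3 (3000.0). Every group overlapped with the next in this order. The ratio of the highest to the lowest library was largest in KO males after O3, from 5332 to 110688 rpm, and smallest in co-ex females after O3, from 2833 to 4245 rpm.

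miR-144-5p ran from 0 to 1390 rpm, above miR-451a by its median in all groups but both groups of co-ex males and co-ex females after O3. Its medians were 696 rpm in KO males after O3, 418 in KO males after FA, 174 in KO females after FA, 70.2 in co-ex females after FA, 26.8 in KO females after O3, 14.7 in co-ex males after O3, 7.29 in co-ex males after FA and 2.01 in co-ex females after O3. miR-451a spanned 0 to 364 rpm, with medians of 136 and 79.4 rpm in KO males after O3 and FA, 56.2 in co-ex females after FA, 22.6 in co-ex males after O3, 19.1 in co-ex females after O3, 14.0 in KO females after FA, 8.66 in co-ex males after FA and 6.74 in KO females after O3. miR-144-3p had medians of 149 and 116 rpm in KO males after O3 and FA, 30.0 and 8.32 rpm in co-ex females after FA and O3, and 0 and 8.43 rpm in KO females after FA and O3. For these 3 miRNAs the orders run from KO males downwards, and many values rest on few reads: miR-451a had 3 reads or fewer in 8 of 28 libraries, miR-144-5p in 9 of 28 and miR-144-3p in 8 of 20.

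**Figure D2:**
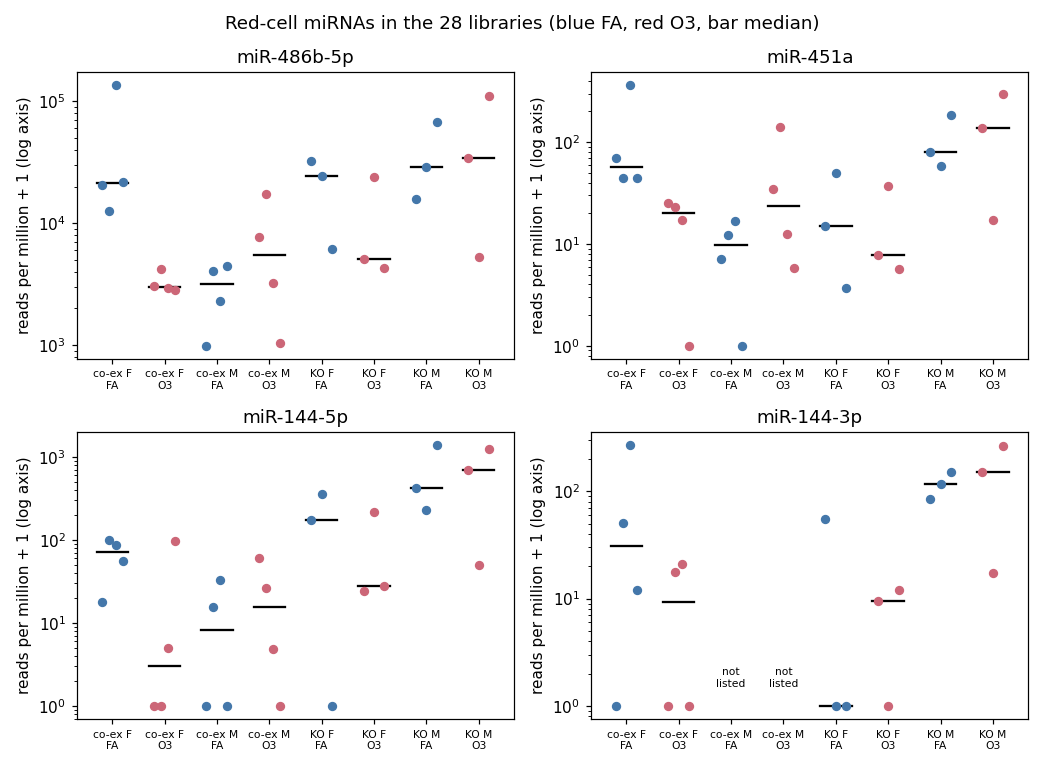
Level of each red-cell miRNA (y axes, rpm + 1, log axis) in each library (points), by group (x axes; blue FA, red O3; bar, median). KO males are the groups in which all 6 libraries hold reads of all 4 miRNAs, and miR-144-3p is not listed for co-ex males.

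The first question was whether O3 changed these miRNAs in co-ex females. miR-486b-5p had normalized values of 3149, 2134, 22316 and 3101 after FA and of 511, 657, 432 and 456 after O3. All 4 O3 libraries lay below all 4 FA libraries, and FA replicate 3 stood far above the other FA libraries. The FA mean was 7675 ± 9772 and the O3 mean was 514 ± 101 (SD, n = 4 each). On the log2(value + 1) scale, where FA replicate 3 weighs less, the change of miR-486b-5p was -3.19. Its standard error (SE) was 0.61 and its adjusted p was 0.0341 (limma, Benjamini-Hochberg). It was the 1 miRNA past the threshold of 0.1 of 271 tested (0.369%). Without FA replicate 3 the log2 fold change was -2.44 (limma adjusted p = 0.0121). Without O3 replicate 1, 2 or 4 the values were -3.20, -3.32 and -3.14, and the limma adjusted p of 0.103, 0.155 and 0.123 missed the threshold. The FA and O3 libraries here also carry separate runs of library code numbers, from which exposure cannot be told apart.

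The other 3 miRNAs were lower after O3 in co-ex females by their means, and none passed the test. miR-451a had normalized values of 10.5, 7.26, 59.4 and 6.21 after FA and of 4.02, 3.44, 2.37 and 0 after O3. These groups did not overlap either, which held for 11 of the 271 miRNAs tested (4.06%), but the O3 values rest on 1, 4, 4 and 0 reads, and miR-451a passed the filter on low values through its FA libraries alone. The log2 fold change of miR-451a was -2.28 (SE 1.07, limma adjusted p = 0.778).

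miR-144-5p had 2.63, 16.6, 14.0 and 7.76 after FA and 0, 0, 0.591 and 15.5 after O3, so that O3 replicate 4 lay within the FA range. The log2 fold change was -2.08 (SE 1.19, limma adjusted p = 0.778). miR-144-3p had 0, 8.30, 43.7 and 1.55 after FA and 0, 2.58, 2.96 and 0 after O3, with overlap, and did not pass the filter. In a fit without the filter its log2 fold change was -1.56 (SE 1.18, limma adjusted p = 0.889). Together the 4 miRNAs took 1.28 to 13.7% of the reads of the FA libraries and 0.293 to 0.428% of those of the O3 libraries. Nearly all of this was miR-486b-5p, which alone took 1.26 to 13.7% and 0.283 to 0.4245%, so the joint share says little of the other 3. In bulk RNA, fewer cells of a type and less RNA per cell cannot be told apart. The summed macrophage and myeloid miRNAs were 62168 to 119499 rpm after FA and 78716 to 167757 rpm after O3, with the lowest value in FA replicate 3, and their part in the result was not tested.

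In co-ex males the direction of the means was the other way, and no member passed. miR-486b-5p had normalized values of 380, 1358, 793 and 1185 after FA and of 2750, 6366, 1214 and 329 after O3. O3 replicate 4 was the lowest of all 8 libraries and O3 replicate 2 the highest. The means were 929 ± 436 and 2665 ± 2662 (SD, n = 4 each), with a log2 fold change of 0.96 (SE 0.78, limma adjusted p = 0.944), in a table where 0 of 312 tested miRNAs were called (0%) and 11 had an unadjusted p under 0.05. FA and O3 did not overlap for 2.88% of the tested miRNAs, and miR-486b-5p was not among them. Leaving out O3 replicate 2 gave a change of 0.31, and leaving out O3 replicate 4 gave 1.73. By edgeR and by DESeq2 on the recovered reads its adjusted p was above the threshold too.

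miR-451a in co-ex males had 2.35, 3.73, 5.45 and 0 after FA and 11.9, 51.3, 4.32 and 1.52 after O3, from 60 reads at most. miR-144-5p had 0, 4.85, 10.9 and 0 after FA and 21.0, 9.41, 1.44 and 0 after O3. Both overlapped between FA and O3 and did not pass the filter, and in the fit without it their log2 fold changes were 1.62 (SE 1.09) and 0.75 (SE 1.20), each with a limma adjusted p of 0.953. The highest miR-486b-5p and miR-451a values came from the same library, O3 replicate 2, which also had the lowest macrophage and myeloid sum of the O3 group (54293 rpm) and the highest epithelial sum (51333 rpm). The part of these in the result was not tested.

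KO females gave values of miR-486b-5p of 18233, 14522 and 3182 after FA and of 2579, 11388 and 2117 after O3. One library in each group lay near the other group, FA replicate 3 at the low end and O3 replicate 2 at the high end. Its log2 fold change was -1.25 (SE 0.79, limma adjusted p = 0.409), in a table where 42 of 319 tested miRNAs were called (13.2%; 27 without O3 replicate 3), none of them a member. Its FA and O3 libraries overlapped, while those of 31.3% of the tested miRNAs did not. The means were 11979 ± 7841 and 5361 ± 5225 (SD, n = 3 each).

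In KO females, the same 2 libraries crossed over for miR-451a and miR-144-5p, but not for miR-144-3p. miR-451a had 7.90, 29.3 and 1.40 after FA and 3.40, 17.2 and 2.32 after O3, with a log2 fold change of -0.43 (SE 1.35, limma adjusted p = 0.912). miR-144-5p had 98.8, 213 and 0 after FA and 11.9, 103 and 13.1 after O3, with a log2 fold change of -0.06 (SE 1.99, limma adjusted p = 0.990). The 0 of FA replicate 3 stands beside 4556 reads of miR-486b-5p in the same library of 744541 reads, and allows up to 4.03 rpm of miR-144-5p. miR-144-3p had 30.5, 0 and 0 after FA and 4.24, 0 and 5.40 after O3, did not pass the filter, and gave 0.03 (SE 1.56, limma adjusted p = 0.996) without it. The sign of this change, and of those of miR-451a and miR-144-5p, turned when single libraries were left out. Without O3 replicate 3, the library with the high muscle sum, the changes were -0.80 for miR-486b-5p, 0.05 for miR-451a, -0.46 for miR-144-3p and 0.40 for miR-144-5p.

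KO males had the highest levels, and FA and O3 overlapped for all 4. miR-486b-5p had 22664, 38237 and 99018 after FA and 40044, 6141 and 135454 after O3. The O3 group held both the lowest and the highest of the 6 libraries. miR-451a had 113, 76.6 and 272 after FA and 160, 18.8 and 365 after O3, with its lowest and highest values in the same 2 libraries. miR-144-3p had 118, 155 and 219 after FA and 176, 18.8 and 322 after O3, and miR-144-5p had 593, 300.3 and 2036 after FA and 819, 56.4 and 1516 after O3.

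The log2 fold changes in KO males were -0.45 (SE 1.11) for miR-486b-5p, -0.35 (SE 1.11) for miR-451a, -0.62 (SE 1.03) for miR-144-3p and -0.78 (SE 1.30) for miR-144-5p, each with a limma adjusted p of 0.967. Of 440 miRNAs tested in KO males, 4 were called (0.909%), but 88 without FA replicate 3, and 0 to 2 without any one of the other libraries, while in 12.7% the FA libraries were all on one side of the O3 libraries, none of the 4 members among them. Without O3 replicate 2, the library with the lowest values, all 4 changes were above 0, at 0.74, 0.86, 0.58 and 0.64. Without FA replicate 3, the library with the high endothelial and mesenchymal sums, miR-486b-5p was at 0.13, miR-451a at 0.16, miR-144-3p at -0.38 and miR-144-5p at -0.03.

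**Figure D3:**
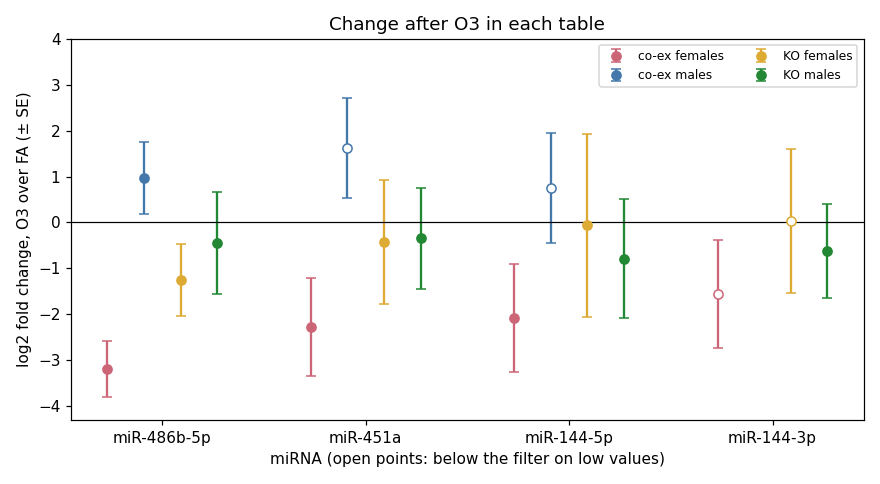
Log2 fold change of O3 over FA on log2(normalized value + 1) (y axis; points, limma estimate; bars, SE) for each red-cell miRNA (x axis) and table (colours). Open points mark miRNAs below the filter on low values, fitted without it. The estimates of co-ex females are all below 0 and those of co-ex males above 0, and miR-486b-5p in co-ex females (-3.19) is the one that passed the threshold.

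The next question was whether the change after O3 differed between sexes or genotypes, for which the change in one table was subtracted from that in another. For miR-486b-5p in co-ex mice, the change in males (0.96) minus that in females (-3.19) was 4.15 (SE 1.09), with an unadjusted limma p of 0.00128 and an adjusted p of 0.319, in a comparison where 0 of 249 miRNAs were called (0%). So the difference did not pass the threshold by limma. It did when edgeR was run on the reads instead (5.24, adjusted p = 0.0313) and by limma without co-ex males O3 replicate 4 (4.92, adjusted p = 0.0201), and over all 20 settings it ranged from 3.40 to 5.24, with adjusted p from 0.0201 to 0.928.

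Between genotypes, co-ex minus KO, the difference of the miR-486b-5p changes was -1.94 (SE 1.09, limma adjusted p = 0.383) in females, where 21 of 241 miRNAs were called (8.71%), and 1.42 (SE 1.45, limma adjusted p = 0.949) in males, where 0 of 305 were called (0%). In males it fell to 0.22 when KO O3 replicate 2 was left out and reached 2.45 when KO O3 replicate 3 was. The number called in females dropped to 10 or 9 on removal of co-ex FA replicate 1 or 4, to 13 for co-ex O3 replicate 3 and to 12 for KO O3 replicate 2, and was at most 29 over the libraries removed. In females the same difference was -1.85 (SE 1.65, limma adjusted p = 0.609) for miR-451a and -2.02 (SE 2.28, limma adjusted p = 0.684) for miR-144-5p. In KO mice, males minus females, it was 0.80 (SE 1.54), 0.08 (SE 1.77) and -0.73 (SE 2.65) for miR-486b-5p, miR-451a and miR-144-5p, with limma adjusted p of 0.902, 0.995 and 0.951 and 0 of 309 miRNAs called (0%). miR-144-3p passed the filter in KO males alone and was not tested between tables. Co-ex and KO libraries carry separate runs of library code numbers. So do males and females among the co-ex libraries, and FA and O3 within each co-ex sex. What the codes stand for was not given. Throughout, genotype, and among co-ex libraries sex and exposure, therefore cannot be told apart from these runs of codes.

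The levels themselves were then compared between groups of different tables, by limma on log2(rpm + 10). After FA, miR-486b-5p was lower in co-ex males than in co-ex females, at 987, 4084, 2302 and 4461 rpm against 20498, 12620, 136655 and 21926 rpm. No library of one group reached the other, which held for 14.9% of the miRNAs tested. The difference was -3.54 (SE 0.77, limma adjusted p = 0.0139), in a comparison where 44 of 249 miRNAs were called (17.7%; 20 without co-ex females FA replicate 1 or 4, 75 without replicate 2, and 25 without co-ex males FA replicate 1), and it passed the threshold in all 11 settings, with values from -4.02 to -2.81. The summed epithelial miRNAs were 21503 to 49652 rpm in co-ex females and 5768 to 36622 rpm in co-ex males, and their part in the result was not tested. Sex and the runs of library codes cannot be told apart here. After O3 the difference between the same sexes was 0.52 (SE 0.77, limma adjusted p = 0.672), with 39 of 249 called (15.7%), a count that was 4 without co-ex males O3 replicate 1, 13 without replicate 3 and 59 without replicate 2.

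Co-ex males were also lower than KO males after FA, where KO males had 15966, 28786 and 67595 rpm of miR-486b-5p. Here too no library of one group reached the other, as for 23.3% of the miRNAs tested. The difference was -3.63 (SE 1.01, limma adjusted p = 0.0255), with 65 of 305 miRNAs called (21.3%), and it passed in all 10 settings, from -4.17 to -3.07, the latter without KO males FA replicate 3 (limma adjusted p = 0.0842). After O3 the groups overlapped, and the difference was -2.56 (SE 1.01, limma adjusted p = 0.150), with 37 of 305 called (12.1%), but 5 to 8 without any one KO library and 11, 15 and 19 without co-ex males O3 replicate 1, 3 or 4. It passed with edgeR (-2.99, adjusted p = 0.0936), without co-ex males O3 replicate 2 (-3.19, limma adjusted p = 0.0775) and without KO males O3 replicate 2 (-3.73, limma adjusted p = 0.0883). As above, genotype and the runs of library codes cannot be told apart in these differences.

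Co-ex and KO females did not differ past the threshold in any member. For miR-486b-5p the difference, co-ex minus KO, was 0.81 (SE 0.75, limma adjusted p = 0.482) after FA, with 83 of 241 miRNAs called (34.4%), and -1.32 (SE 0.75, limma adjusted p = 0.291) after O3, with 23 of 241 called (9.54%; 8 without KO O3 replicate 1, 15 without KO O3 replicate 3, 14 without co-ex O3 replicate 2 and 35 without co-ex O3 replicate 3). For miR-451a it was 1.87 (SE 0.89, limma adjusted p = 0.136) after FA and 0.04 (SE 0.89, limma adjusted p = 0.967) after O3.

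KO males had more of all members than KO females by their medians, but no difference passed. After FA the differences, males minus females, were 0.90 (SE 1.05) for miR-486b-5p, 2.01 (SE 0.92) for miR-451a and 2.57 (SE 1.44) for miR-144-5p, with limma adjusted p of 0.727, 0.269 and 0.387 and 8 of 309 miRNAs called (2.59%; from 0 to 18 as each library was left out). After O3 they were 1.75 (SE 1.05), 2.24 (SE 0.92) and 2.51 (SE 1.44), each with a limma adjusted p of 0.991 and 0 of 309 called (0%). Without KO males FA replicate 3 the differences after FA were 0.34, 1.57 and 1.85. Without KO females O3 replicate 3 those after O3 were 1.30, 1.93 and 2.10.

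Whether the 4 move together was asked within each table, over its 6 or 8 libraries, by Pearson's r and Spearman's rho of log2(rpm + 10). Pairs with a member whose FA and O3 libraries did not overlap were left out, which are 5 pairs in co-ex females, and 16 pairs remained, over which p-values were adjusted. KO males, the table with the most reads of these miRNAs, had all 6 pairs together, with r from 0.915 to 0.977 (n = 6, exact permutation tests, adjusted p from 0.0167 to 0.0349) and rho from 0.886 to 1.00 (adjusted p from 0.0444 to 0.0667). With the 2 libraries farthest from the median left out, r was still 0.604 to 0.987, over 4 libraries. The 6 libraries include FA replicate 3, with its high endothelial and mesenchymal sums. How often pairs of other miRNAs reach such r in these libraries was not examined, so the values cannot be called particular to the members.

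In KO females, miR-451a went with miR-144-5p, at r = 0.919 and rho = 0.943 (n = 6, exact permutation test, adjusted p = 0.0333 and 0.0444). For miR-486b-5p, r was 0.802 with miR-451a and 0.869 with miR-144-5p (n = 6, exact permutation tests, adjusted p = 0.133 for both). The pairs with miR-144-3p had r from -0.27 to 0.19 (n = 6, exact permutation tests, adjusted p from 0.762 to 0.825). miR-144-3p was at 0 reads in 3 of these 6 libraries, 2 of which held 291 and 24 reads of the other arm of its own hairpin.

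In co-ex males, miR-451a and miR-144-5p had r = 0.693 and rho = 0.878 (n = 8, exact permutation test, adjusted p = 0.0693 and 0.0444). miR-486b-5p and miR-451a had r = 0.755 and rho = 0.524 (n = 8, exact permutation test, adjusted p = 0.0555 and 0.286). Without the 2 libraries farthest from the median the latter r was 0.430, so that it rests on those libraries. miR-486b-5p and miR-144-5p had r = 0.629 and rho = 0.537 (n = 8, exact permutation test, adjusted p = 0.133 and 0.285). In co-ex females, the arms of miR-144 had r = 0.398 and rho = 0.307 (n = 8, exact permutation test, adjusted p = 0.428 and 0.557), and r was -0.33 without the 2 farthest libraries.

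The group differences were then taken out by setting each library against the mean of its own group, with values permuted within groups 100000 times. miR-486b-5p and miR-451a deviated together over the 28 libraries, with r = 0.841 and rho = 0.779 (permutation adjusted p = 0.00048 and 0.00174 over 6 pairs). Without the 2 farthest libraries, co-ex females FA replicate 3 and KO males O3 replicate 2, r was 0.778. The group means still held these libraries, so this r is not free of them. Over all libraries of a table, r was 0.864 in co-ex females, 0.722 in co-ex males, 0.836 in KO females and 0.958 in KO males. In co-ex females, FA replicate 3 had the largest deviations of both miRNAs (2.20 and 1.97). miR-486b-5p and miR-451a lay on the same side of their group means in 23 of 28 libraries, while the hairpins lie on different chromosomes. This count was not made for pairs of other miRNAs. Among the exceptions, co-ex males after FA replicate 4 had the highest miR-486b-5p of its group (a deviation of 0.81) and no read of miR-451a, and KO females after FA replicate 1 had the highest miR-486b-5p (0.93) with miR-451a slightly below its mean (-0.13).

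miR-144-5p also deviated with miR-486b-5p (r = 0.650, rho = 0.598, permutation adjusted p = 0.00525 and 0.0169) and with miR-451a (r = 0.557, rho = 0.514, permutation adjusted p = 0.0263 and 0.0474). This did not hold in each table: in co-ex females the r values were 0.03 and -0.36, against 0.606 to 0.988 in the other 3 tables. The arm miR-144-3p, over the 20 libraries of 3 tables, had r = 0.629 with miR-486b-5p (permutation adjusted p = 0.0636) and 0.555 with miR-451a (permutation adjusted p = 0.0843), and 0.388 and 0.256 without the 2 farthest libraries, on which both relations rest. Between the arms of miR-144, r was 0.353 (permutation adjusted p = 0.222).

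**Figure D4:**
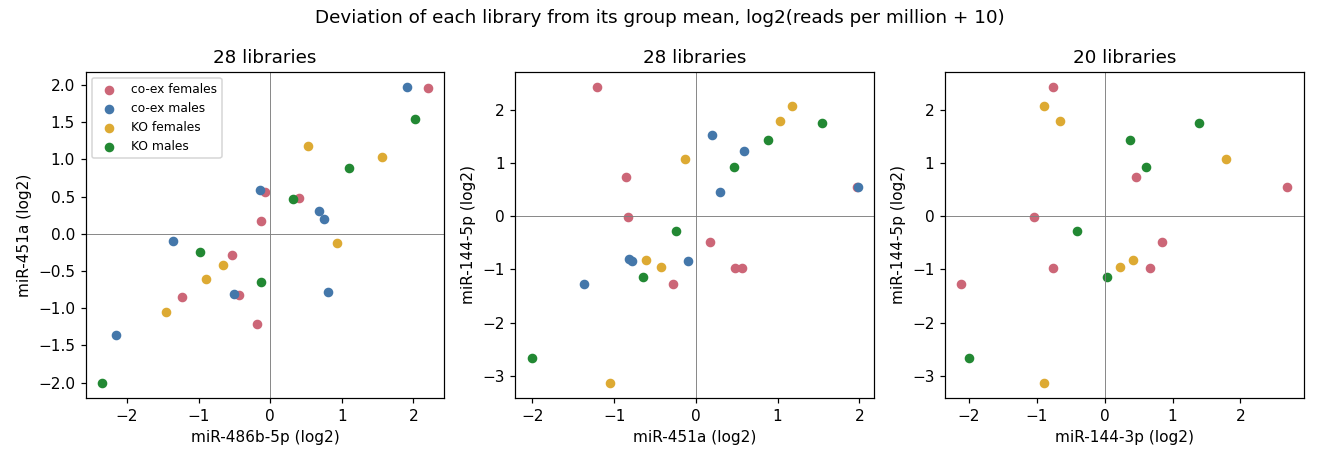
Deviation of each library from the mean of its group, in log2(rpm + 10), for miR-451a (y) against miR-486b-5p (x), miR-144-5p (y) against miR-451a (x) and miR-144-5p (y) against miR-144-3p (x). Points are libraries, coloured by table. The first panel rises in all 4 tables (r = 0.841), the second in 3 of 4 (r = 0.557), and the arms of miR-144 are scattered outside KO males (r = 0.353).

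The reads of 2 members in the same library also give their proportion. Where both had more than 3 reads, miR-486b-5p exceeded miR-451a by a median of 345 times, from 124 to 2308 times over 20 libraries. The medians by table were 297 in co-ex females, 256 in co-ex males, 710 in KO females and 346 in KO males. Ligation favours some small RNAs over others, so these are proportions of reads and not of molecules. The best rank of miR-451a by reads was 117, in KO males after O3 replicate 3, where miR-486b-5p ranked 1. Whether the reads of these miRNAs came from red cells was not tested. miR-451a and miR-144-3p, from neighbouring hairpins, had a median ratio of 0.910 over 11 libraries, from 0.259 (14 and 54 reads in KO females after FA replicate 1) to 1.36. Libraries with few reads of one are outside this count, among them KO females after FA replicate 2, with 40 reads of miR-451a and 0 of miR-144-3p.

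The arms of miR-144 were not in a fixed proportion. miR-144-5p exceeded miR-144-3p by a median of 3.00 times over 11 libraries, from 0.320 in co-ex females after FA replicate 3 (8 and 25 reads) to 9.28 in KO males after FA replicate 3 (1364 and 147 reads). In KO males alone the ratio ran from 1.94 to 9.28, and the highest outside FA replicate 3, the library with the high endothelial and mesenchymal sums, was 5.03.

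Other rows of the same hairpins were few. miR-486b-3p, the other arm of miR-486b, is listed in 3 tables, and miR-486b-5p exceeded it 53.9 to 3685 times over the 9 libraries where both had more than 3 reads. KO females after FA replicate 3 held 37 reads of miR-486b-3p, while the other 5 libraries of that table held 1 or 0. miR-451b, from the opposite strand of Mir451a, had 1 to 22 reads in KO males, and miR-451a exceeded it 14.0 to 20.6 times in the 4 libraries where both had more than 3 reads.

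Of the 229 other miRNAs that passed the filter in all 4 tables, the 3 whose deviations were most like those of miR-486b-5p over the 28 libraries were miR-1957a (r = 0.527), miR-30e-3p (r = 0.518) and miR-221-3p (r = 0.467). For miR-451a they were miR-1957a (r = 0.657), miR-690 (r = 0.497) and miR-351-3p (r = 0.462). None came near the r of 0.841 between the pair itself. With miR-451a, though, miR-1957a had a higher r than the members miR-144-5p (0.557) and miR-144-3p (0.555, over 20 libraries). With miR-486b-5p those members were above it (0.650 and 0.629). The values for miRNAs outside the members are descriptions over libraries that share depth and composition, with no test.

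A list of 10 further miRNAs that are linked to erythroid cells but made by many others (among them miR-16-5p, miR-92a-3p, miR-25-3p and miR-210-3p) did not show what miR-486b-5p showed in co-ex females. There 7 were tested, none was called, and their median log2 fold change was -0.02, beside -0.16 over all tested miRNAs. In co-ex males 8 were tested and none called (median -0.07, all tested 0.18), and in KO males 9 were tested and none called (median -0.28, all tested -0.04). In KO females 1 of 9 tested rose, miR-182-5p (log2 fold change 2.51, SE 0.48, limma adjusted p = 0.0126), with a median over the list of -0.04 and over all tested of 0.06. There the summed epithelial miRNAs, 9 of 10 of which rose, were 2065 to 5543 rpm after FA and 28154 to 51404 rpm after O3, and their part in the miR-182-5p value was not tested.

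The summed level of this list moved little in co-ex females, from 19670 to 34962 rpm after FA and from 15839 to 27939 rpm after O3. The sum of the red-cell rows was 12810 to 137372 rpm after FA and 2929 to 4284 rpm after O3. Nearly all of that sum was miR-486b-5p, at 12620 to 136655 rpm after FA and 2833 to 4245 rpm after O3. Muscle miRNAs, as miR-486 is also known from muscle, summed to 110 to 8307 rpm after FA and 313 to 661 rpm after O3 in the same table. Their highest value was in FA replicate 1, while FA replicate 3, with the most miR-486b-5p, had 609 rpm. In KO females after O3 replicate 3, with the 85312 rpm of muscle miRNAs, miR-486b-5p was at 4320 rpm, the lowest of the table. Among the co-ex female libraries, the lymphocyte miRNA miR-150-5p was highest in FA replicate 2, at 5395 rpm, the FA library with the least miR-486b-5p. The part of muscle and lymphocyte miRNAs in the results was not tested.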

How the data were processed

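Small RNA was sequenced in 28 libraries, labelled as separate mice. Per the study's methods, the authors trimmed reads with the FASTX-Toolkit, counted miRNAs with Chimira and tested them with edgeR and TCC. The genome build was not given in the sources used here. The deposited tables hold a signal, the read count divided by a size factor, normalized within each table. All values were whole multiples of 1 step (within 0.001 of a read), so reads were recovered. The authors' mean, log2 fold change, p-value, q-value and rank columns were not used. The labels give no batch, but co-ex and KO libraries carry separate runs of library code numbers. Among co-ex libraries, males and females, and FA and O3 within each sex, also carry separate runs.

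O3 was compared with FA by limma 3.58.1 (R 4.3.3, trended prior) on log2(value + 1), which understates changes of low miRNAs. The filter asked for a value of 5 or more in at least the number of libraries in the smaller group, p-values were adjusted by Benjamini-Hochberg over the table, and the threshold was 0.1, as in the study. Members below the filter were fitted without it. Levels across tables used log2(rpm + 10) over miRNAs that passed in both tables. Alternatives were a pseudocount of 0.1 or 1 rpm, no filter, library totals with or without the members, edgeR 4.0.16 (quasi-likelihood), DESeq2 1.42.0, the replicate number as a block, and each library left out. The code was tested on simulated data. Replicates differed by at least 21.8 times counting variance in each of 36 pairs, so no pair was the same library sequenced again. Whether a pair came from the same mouse cannot be told from this. Named are the members, other rows of their hairpins, the 3 miRNAs most like each of miR-486b-5p and miR-451a, and listed markers. The members and lists were chosen with earlier results of these data known.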

Additional observations from a re-analysis of the deposited data

Results flagged for a closer look

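In co-ex females after FA, replicate 3 stood apart from the other 3 libraries for miR-486b-5p, at a normalized value of 22316, where the others were between 2134 and 3149, and for miR-451a, at 59.4, where the others were between 6.21 and 10.5. The gap to the nearest library was 0.95 and 0.919 of the range of the group, above Dixon's limit for 4 samples. The same library had the highest miR-144-3p value, 43.7, with a gap of 0.810 of the range, under the limit. In co-ex females after O3, replicate 4 stood apart for miR-144-5p, at 15.5 from 25 reads, where the others held 0, 0 and 1 read, with a gap of 0.962 of the range, and it was the library with no read of miR-451a. Of 14 groups of 4 examined, 3 were past the limit. The limit assumes normal values of independent groups, while these values were not logged and members share libraries. The rate that chance gives is therefore not known here.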

How the results depend on the processing

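Depth limits miR-451a, miR-144-3p and miR-144-5p, which rest on few reads outside KO males, and the 3 or 4 mice of a group limit all 4. The results that passed the threshold kept their direction in every alternative that was run. In co-ex females, the change of miR-486b-5p on the log2 scale ranged from -3.57 to -2.44 as each library was left out. It missed the threshold without O3 replicate 1, 2 or 4 and passed it without any other single library. DESeq2 gave -3.89 for miR-486b-5p and no adjusted p, so it was not called there. The 1 miRNA of 267 that DESeq2 called in co-ex females was another, and it rose. Every change of sign below concerns a result that did not pass, and its cause was not tested.

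With edgeR on the recovered reads, the difference between the sexes in the co-ex change of miR-486b-5p was 5.24 and its level in co-ex males minus KO males after O3 was -2.99, both now past the threshold. The sign turned with edgeR for the changes after O3 of miR-144-3p in KO females (-1.43) and of miR-486b-5p (0.35), miR-451a (0.38) and miR-144-3p (0.21) in KO males, and for the differences of the miR-144-5p changes between genotypes in females (0.027) and sexes in KO mice (1.24). DESeq2 turned the same 4 changes (-1.59, 0.21, 0.27 and 0.095). The miR-144-5p change in KO females was 0.99 with a pseudocount of 0.1 and 0.13 and 0.12 with library totals, with and without the members. With 1 rpm as the pseudocount, co-ex minus KO females was 0.45 for miR-144-5p after FA and -0.24 for miR-451a after O3.

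Leaving out each library in turn gave changes after O3 in co-ex males of 0.31 to 1.73 for miR-486b-5p, 0.81 to 2.27 for miR-451a and 0.03 to 1.51 for miR-144-5p, and in KO females of -2.04 to -0.78 for miR-486b-5p, -1.35 to 0.48 for miR-451a, -0.80 to 1.69 for miR-144-3p and -2.45 to 1.42 for miR-144-5p. In KO males they were -1.49 to 0.74 for miR-486b-5p, -1.25 to 0.86 for miR-451a, -1.43 to 0.58 for miR-144-3p and -1.72 to 0.64 for miR-144-5p. Differences of the changes ranged from 0.22 to 2.45 for miR-486b-5p between genotypes in males, from -3.50 to 0.37 for miR-144-5p between genotypes in females, from 3.40 to 4.92 for miR-486b-5p between sexes in co-ex mice, and between sexes in KO mice from -2.20 to 1.67 for miR-144-5p, -0.24 to 1.99 for miR-486b-5p and -0.83 to 1.28 for miR-451a. Levels of miR-486b-5p after O3 ranged from -0.12 to 1.23 for co-ex males minus females and from -3.73 to -1.54 for co-ex minus KO males, and co-ex minus KO females from -1.996 to 0.60 for miR-144-5p after FA and -0.26 to 0.56 for miR-451a after O3.

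Without the 2 libraries farthest from the median, r between the arms of miR-144 was -0.33 in co-ex females, -0.31 in KO females and 0.604 in KO males. It was 0.430 for miR-486b-5p and miR-451a and 0.940 for miR-451a and miR-144-5p in co-ex males. In KO females r with miR-144-3p was -0.65 for miR-486b-5p and 0.965 for miR-451a, and in KO males 0.702 for miR-451a. Over the deviations, with group means that still held the libraries left out, r with miR-144-3p was 0.388 for miR-486b-5p and 0.256 for miR-451a. With the deposited values in place of rpm, all 16 r kept their sign.

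FA and O3 libraries share replicate numbers, but those with the same number did not deviate together (r from -0.28 to 0.23 over 14 pairs), and 6 of the 14 FA libraries were closest to their own number. With the replicate block, miR-486b-5p in co-ex females was still at -3.19 (limma adjusted p = 0.0793), no call on a member changed, and the calls in KO males went from 4 to 1 and in KO females from 42 to 37.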
